A study of Danio rerio with 8 samples.

Results

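The genes described here encode the contractile machinery of muscle: myosin heavy and light chains, troponins, tropomyosins, sarcomeric actins, titin and nebulin, myosin binding proteins, Z-disc and M-band proteins, the calcium release channels and calcium pump of the sarcoplasmic reticulum, parvalbumins and creatine kinases. They were chosen by gene symbol, and 122 of the 32520 rows of the raw count table carried a matching symbol. Of these, 111 had at least 10 counts in at least 3 libraries and are the members, among 19412 rows that passed the same minimum. Rows with upper-case symbols, such as *TTN*, *RYR1*, *RYR3* and *TNNT2*, are given as the table names them, and which zebrafish copy each stands for was not settled, so that the role given for them is that of the mammalian gene of the name. The libraries hold RNA of dissected heads of zebrafish larvae of the AB strain at 7 days post-fertilization (dpf), 4 from wild-type (WT) larvae and 4 from *mtmr5*-KO larvae, which per the study carry a CRISPR/Cas9 deletion of the whole *mtmr5* gene, listed in the table as *sbf1*. Each library is a pool, with 11 to 17 heads dissected per genotype. Per the study the WT larvae were siblings of the *mtmr5*-KO larvae, and the replicates came over time from different breeding pairs. Neither the study nor the labels say whether WT and *mtmr5*-KO libraries of the same number share a clutch. A dissected head holds jaw and eye muscle and the smooth muscle of vessels beside the brain, and can carry heart and anterior trunk muscle. A lower level can mean fewer muscle fibres or less RNA per fibre, which cannot be told apart in bulk RNA.

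In a sarcomere, thick filaments of myosin pull on thin filaments of actin, and troponin and tropomyosin on the thin filament open the binding sites when calcium is released from the sarcoplasmic reticulum. Fast, slow and cardiac muscle use different paralogs of most of these proteins, so that the fibre type can be read from the paralogs expressed. Zebrafish keep several copies of many of them, often side by side in the genome.

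The depth was 20514932 to 22761120 counts for WT libraries and 16104181 to 19170140 counts for *mtmr5*-KO libraries. Counts of *sbf1* were 2545, 1939, 2008 and 1894 in WT and 63, 55, 42 and 26 in *mtmr5*-KO libraries, so that the labels hold for the deleted gene. Mitochondrially encoded genes took 6.43% to 8.82% of WT counts and 18.6% to 26.6% of counts in *mtmr5*-KO libraries. Levels are therefore given as CPM, the count of a gene relative to the library total, with totals scaled by the trimmed mean of M-values (TMM), which sets the bulk of genes equal between libraries. The TMM factors ranged from 1.28 to 1.6 (WT) and from 0.559 to 0.881 (*mtmr5*-KO), and if library totals are used in their place the median over all tested genes shifts on the log2 scale from -0.02 to -0.98. Replicates 3 and 4 of *mtmr5*-KO stood apart from replicates 1 and 2 by higher mitochondrial, liver, pancreas, epidermis and neuron levels and lower lens crystallin levels. Counts are given with and without them.

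Among the 111 genes, 23 (20.7%) rose and 7 (6.31%) fell in *mtmr5*-KO heads, which here means an adjusted p under 0.05 (edgeR), while over all genes tested 13.5% were higher and 7.51% lower. At the stricter thresholds of the study, an adjusted p below 0.01 with a log2 fold change beyond 1 in size, 12 were higher and 0 lower (edgeR), against 7.13% and 1.08% of all genes tested. At an unadjusted p under 0.05 the counts were 32 and 9. The share of all genes at an unadjusted p was not computed, so such counts, here and below, have no background to be read against. Log2 fold changes, here always *mtmr5*-KO over WT, were positive for 74 genes and negative for 37, and their median was 0.32. The genotypes did not overlap for 32 genes (28.8%), close to the 24.9% of all genes tested. With *mtmr5*-KO replicates 3 and 4 left out, 11 genes rose, among them *myl1*, *mylpfa*, *mylz3*, *pvalb2*, *ryr1b*, *ckma*, *ckmb*, *actc1b*, *TTN* and *RYR3*, and 2 fell, *smyhc1* and *myh10*. That fit holds fewer *mtmr5*-KO libraries, so a call lost there, here and below, need not mean a smaller change. The shares of all genes called were computed for the main fit only. Counts of called genes from other fits, here and below, therefore have no background to be read against. With library totals as the scaling, 3 rose (*myl1*, *pvalb2* and *mylk4b*) and 45 fell, since all genes shift by the amount given above, so the other rises described below hold only relative to the bulk of genes. The 111 genes together took 0.211% to 0.258% of all WT counts and 0.133% to 0.2% of all *mtmr5*-KO counts, but 1588 to 1681 CPM against 2159.8 to 2389 CPM once scaled by TMM.

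**Figure D1:**
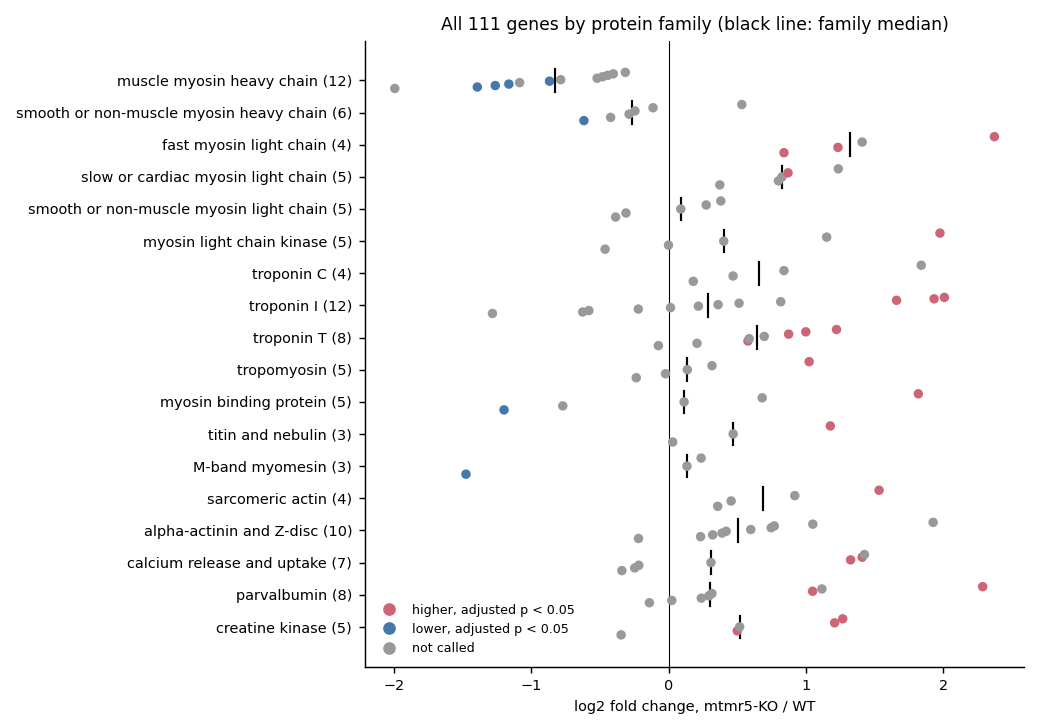
Log2 fold change (*mtmr5*-KO over WT, horizontal axis) of each of the 111 genes, 1 point a gene, in 18 protein families with the number of genes in parentheses, and the family median as a black line. Red and blue points passed an adjusted p of 0.05 as higher and lower; all 12 muscle myosin heavy chains lie left of 0 and all 4 fast myosin light chains right of it.

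Within the myosin molecule, the heavy chain is the motor and the essential and regulatory light chains stiffen its lever arm, and transcripts of the chains differed in direction. All 4 fast light chains had a positive log2 fold change and did not overlap between genotypes, and 3 of them rose. Over all genes tested, 24.9% did not overlap and 13.5% rose. The essential light chain *myl1* stood at 6.84, 5.46, 6.43 and 5.99 CPM in the 4 WT libraries and at 25.1, 25.9, 40.1 and 37.3 CPM in the 4 *mtmr5*-KO libraries. Every *mtmr5*-KO library was far above every WT library, and the rise was 5.18-fold (log2 fold change 2.37, SE 0.19, adjusted p = 1.03e-06), the highest log2 fold change of the 111 genes. *mylpfa*, the phosphorylatable regulatory light chain of fast fibres, had 42.3, 35.9, 37 and 35.1 CPM in WT and 83.7, 79.5, 104 and 85.8 CPM in *mtmr5*-KO libraries. Its groups were well apart, with a rise of 2.35-fold (log2 fold change 1.23, SE 0.14, adjusted p = 1.34e-05). For *mylz3*, the other fast essential light chain, the levels were 18, 16.2, 18.5 and 17.4 CPM in WT and 32, 24.9, 30.9 and 37.7 CPM in *mtmr5*-KO libraries (log2 fold change 0.84, SE 0.16, adjusted p = 0.00116). Its lowest *mtmr5*-KO library, replicate 2, still lay above all WT libraries. *mylpfb*, the second copy of the regulatory chain, had 0.614, 0.355, 0.14 and 0.61 CPM in WT and 1.34, 0.728, 0.934 and 1.64 CPM in *mtmr5*-KO libraries (log2 fold change 1.41, SE 0.62, adjusted p = 0.123), and did not pass the test. Scaled by library totals, *myl1* alone of the 4 stayed a called rise and *mylz3* had a log2 fold change of -0.14. The call of *myl1* held in all 18 alternative fits.

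The heavy chains had the opposite sign. All 12 muscle myosin heavy chains had a negative log2 fold change, from -2.0 to -0.32 with a median of -0.83, and 4 of them fell, where 7.51% of all genes tested did. The sign was negative for all 12 under each scaling, tool, filter and left-out library tried (for the 8 that passed the stricter count filter). Their summed level was 89.8, 109, 87 and 93.7 CPM in WT and 63.7, 77.1, 46.1 and 49.4 CPM in *mtmr5*-KO libraries. The sums did not overlap, and *mtmr5*-KO replicates 3 and 4 were the lowest.

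Among fast heavy chains, *myhz2* fell, from 19.3, 32.6, 20.6 and 20.5 CPM in WT to 11.6, 18.3, 10.9 and 9.91 CPM in *mtmr5*-KO libraries (log2 fold change -0.87, SE 0.22, adjusted p = 0.011). WT replicate 2 was well above the other WT libraries, and *mtmr5*-KO replicate 2 came nearest to the WT range without reaching it. Without WT replicate 2 the adjusted p of *myhz2* was 0.0563 at a log2 fold change of -0.66, and without *mtmr5*-KO replicates 3 and 4 it was 0.111 at -0.67. *myhz1.1* had 23.7, 28.6, 23.3 and 24.9 CPM in WT and 24.8, 24.3, 11.4 and 20.02 CPM in *mtmr5*-KO libraries (log2 fold change -0.32, SE 0.21, adjusted p = 0.303). Replicates 1 and 2 of *mtmr5*-KO lay within the WT range and replicates 3 and 4 below it. The log2 fold changes of *myhz1.2*, *myhz1.3* and *myhz1.1l* were -0.44 (SE 0.24), -0.40 (SE 0.75) and -1.09 (SE 0.66), none past the test. *myhz1.1*, *myhz1.2* and *myhz1.3* are neighbours in the RefSeq gene order and near-identical copies may lose or exchange reads, since only uniquely mapping reads were counted. Summed over these 3 genes, levels were 32.7, 35.3, 29.97 and 31.6 CPM in WT and 30.1, 29.3, 16.9 and 25.7 CPM in *mtmr5*-KO libraries. That sum overlapped only between *mtmr5*-KO replicate 1 and WT replicate 3, the lowest WT library.

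The slow heavy chains *smyhc1*, *smyhc2* and *smyhc3* also lie side by side. *smyhc1* had 3.43, 6.49, 4.89 and 6.14 CPM in WT and 1.34, 2.65, 4.3 and 1.06 CPM in *mtmr5*-KO libraries (log2 fold change -1.16, SE 0.39, adjusted p = 0.0443). *mtmr5*-KO replicate 3 lay above WT replicate 1, so the groups overlapped. *smyhc2* had 4.02, 7.95, 5.52 and 5.38 CPM in WT and 2.76, 3.97, 0.374 and 1.35 CPM in *mtmr5*-KO libraries (log2 fold change -1.39, SE 0.46, adjusted p = 0.0419), and there the highest *mtmr5*-KO library lay just under the lowest WT library. *smyhc3* had 16, 57, 27 and 23 counts in WT and 0, 4, 0 and 8 counts in *mtmr5*-KO libraries (log2 fold change -2.0, SE 0.91, adjusted p = 0.133). The calls of *smyhc1* and *smyhc2* were lost when 1 of several libraries was left out. The adjusted p of *smyhc1* rose to between 0.0621 and 0.131 with *mtmr5*-KO replicate 1, 2 or 4 or WT replicate 2, 3 or 4 left out, and that of *smyhc2* to between 0.0507 and 0.13 with *mtmr5*-KO replicate 3 or 4 or WT replicate 2, 3 or 4 left out, at log2 fold changes of -0.96 to -1.25 and -1.09 to -1.42. At a minimum of 50 counts in 4 libraries the adjusted p was 0.06 for *smyhc1* and 0.0506 for *smyhc2*, and with upper quartile factors that of *smyhc1* was 0.0593. Without *mtmr5*-KO replicates 3 and 4 together, *smyhc2* had -0.79 at an adjusted p of 0.138. The log2 fold change of *smyhc3* was -3.32 at an adjusted p of 0.0383 without *mtmr5*-KO replicate 4, its highest *mtmr5*-KO library, which is no support for a change. Summed over the 3 neighbours, which removes reads exchanged among them, the level was 7.9, 16.3, 11.4 and 12.3 CPM in WT and 4.1, 6.89, 4.67 and 3.18 CPM in *mtmr5*-KO libraries, with no overlap.

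**Figure D2:**
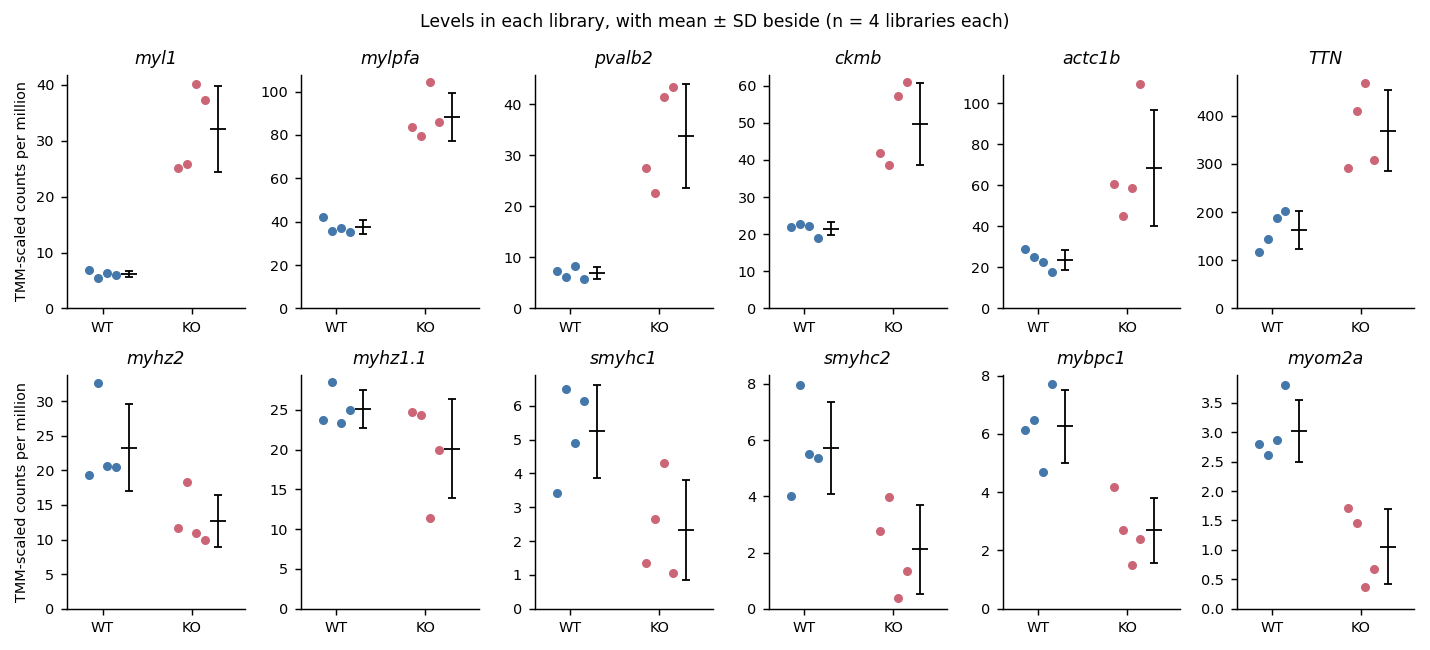
Level (TMM-scaled CPM, linear vertical axes from 0) of 12 genes in each of the 4 WT (blue) and 4 *mtmr5*-KO (red) libraries, with mean ± SD beside the points. The upper 6 genes rose without overlap; in the lower 6, *myhz1.1* and *smyhc1* overlap between genotypes and *myhz2*, *smyhc2*, *mybpc1* and *myom2a* do not.

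Ratios within a library do not depend on the scaling between libraries, so they were taken on summed raw counts. The ratio of the fast heavy chains (*myhz* genes) to the fast light chains was 0.779, 1.21, 0.839 and 0.894 in WT and 0.301, 0.37, 0.158 and 0.22 in *mtmr5*-KO libraries. Its WT mean was 3.55 times its *mtmr5*-KO mean, and the groups did not overlap. The heavy chain counts behind it were 1891, 2165, 1491 and 1472 in WT and 573, 732, 299 and 372 in *mtmr5*-KO libraries. The light chain counts were 2428, 1791, 1778 and 1646 in WT and 1905, 1979, 1887 and 1689 in *mtmr5*-KO libraries, whose totals were lower. In TMM-scaled CPM the light chains moved more than the heavy chains, from a mean sum of 61.7 to 153 CPM (a log2 ratio of 1.31) against 56.9 to 38.7 CPM (-0.55), so that which side carries the ratio depends on the scaling. For slow fibres the ratio of *smyhc* heavy chains to slow light chains (*myl10* and *myl13*) was 1.81, 2.85, 2.44 and 4.35 in WT and 0.539, 1.06, 0.50 and 0.273 in *mtmr5*-KO libraries. It did not overlap either, with a WT mean 4.83 times the *mtmr5*-KO mean, on 283 to 504 heavy chain counts in WT against 33 to 104 in *mtmr5*-KO libraries. These ratios combine genes and carry no test.

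Fast genes were then set against slow and cardiac genes in the same way. The fast class (31 genes) over the slow class (13 genes) gave 9.08, 7.79, 10.2 and 8.45 in WT and 12, 14, 17.1 and 12.6 in *mtmr5*-KO libraries. All *mtmr5*-KO libraries were above all WT libraries, the mean being 1.57 times that of WT, and 1.46 times without *mtmr5*-KO replicates 3 and 4. Sums weigh abundant genes most, and the 5 *myhz* heavy chains of the fast class had negative log2 fold changes. The slow class had 942 to 1284 counts in WT and 317 to 492 counts in *mtmr5*-KO libraries. Fast over cardiac (11 genes) gave 8.63, 10.9, 11.4 and 8.99 in WT and 14.3, 10.4, 15.1 and 22.1 in *mtmr5*-KO libraries. Here *mtmr5*-KO replicate 2 lay within the WT range, replicate 4 was far above the rest, and the mean ratio of 1.55 times WT fell to 1.24 times without replicates 3 and 4. Slow over cardiac was 0.951 to 1.4 in WT against 0.743 to 1.76 in *mtmr5*-KO libraries, which overlap widely.

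**Figure D3:**
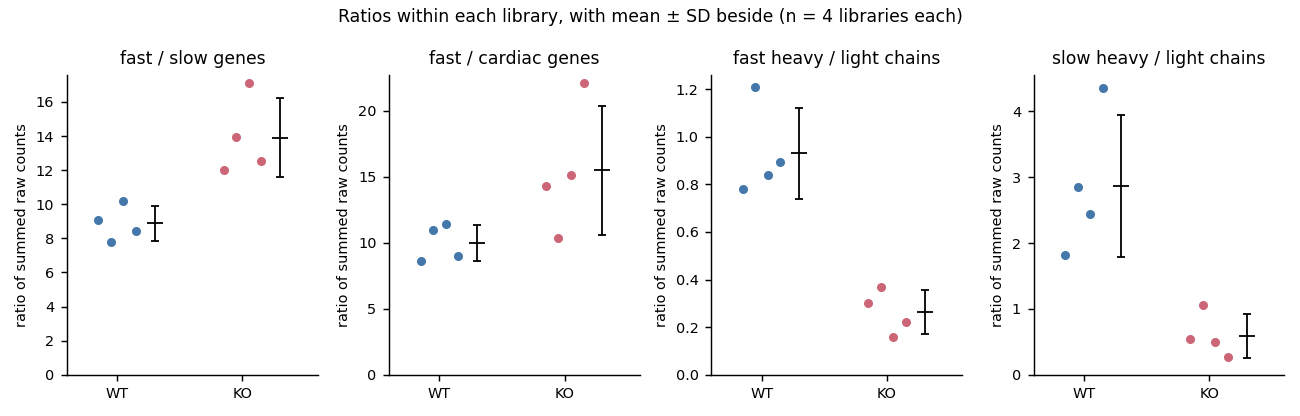
Ratios of summed raw counts within each library (vertical axes, linear from 0) for WT (blue) and *mtmr5*-KO (red), with mean ± SD beside the 4 points each. Fast over slow and both heavy over light chain ratios separate the genotypes, and fast over cardiac does not.

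Of the 31 genes of fast fibres, 10 (32.3%) rose and 1 (3.23%), *myhz2*, fell, where 13.5% of all genes tested were higher and 7.51% lower. The summed level was 306, 323, 336 and 319 CPM in WT and 441, 406, 508 and 524 CPM in *mtmr5*-KO libraries, with a median log2 fold change of 0.51. Without *mtmr5*-KO replicates 3 and 4, 5 rose, a count with no share of all genes beside it. The parvalbumins buffer calcium and speed relaxation. *pvalb2* stood at 7.29, 6.14, 8.31 and 5.81 CPM in WT and 27.5, 22.6, 41.4 and 43.3 CPM in *mtmr5*-KO libraries. The groups were far apart, with *mtmr5*-KO replicates 3 and 4 highest, and the rise was 4.88-fold (log2 fold change 2.29, SE 0.22, adjusted p = 2.5e-06). *pvalb4* had 4.41, 4.72, 3.42 and 3.52 CPM in WT and 6.42, 6.22, 9.62 and 11.2 CPM in *mtmr5*-KO libraries (log2 fold change 1.05, SE 0.26, adjusted p = 0.00837). It also separated the groups, but its call was lost without *mtmr5*-KO replicates 3 and 4, at an adjusted p of 0.146 and a log2 fold change of 0.61. *pvalb1* had 23.8, 35.3, 35.8 and 28 CPM in WT and 31.3, 30.5, 37.7 and 53.8 CPM in *mtmr5*-KO libraries (log2 fold change 0.32, SE 0.20, adjusted p = 0.278). The groups of *pvalb1* overlapped and it did not pass the test, so the rise did not extend to every fast parvalbumin.

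The calcium release channel of fast muscle, *ryr1b*, had 6.22, 5.39, 10.1 and 10.8 CPM in WT and 16.5, 16.2, 27.8 and 21 CPM in *mtmr5*-KO libraries (log2 fold change 1.33, SE 0.25, adjusted p = 0.00123), with no overlap. The sarcoplasmic calcium pump, which returns calcium to the store, did not pass the test in either copy. *atp2a1* had 51.1, 37.4, 42.6 and 40.3 CPM in WT and 57.6, 45.2, 59.7 and 49.8 CPM in *mtmr5*-KO libraries (log2 fold change 0.31, SE 0.15, adjusted p = 0.161), and *atp2a1l* had 39.2, 52.5, 69.9 and 55.1 CPM in WT and 36.6, 38, 50.7 and 45.8 CPM in *mtmr5*-KO libraries (log2 fold change -0.34, SE 0.18, adjusted p = 0.193). The sign of *atp2a1* turned to -0.68 with library totals. Both genes overlapped between genotypes.

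Among fast troponins, the troponin T *tnnt3b*, which ties the complex to tropomyosin, had 22.7, 24.4, 20.5 and 25.8 CPM in WT and 32.6, 32, 33.7 and 41 CPM in *mtmr5*-KO libraries (log2 fold change 0.58, SE 0.15, adjusted p = 0.0108). All *mtmr5*-KO libraries exceeded all WT libraries, although its log2 fold change was -0.39 with library totals and its adjusted p was 0.0808 without *mtmr5*-KO replicates 3 and 4. Fast troponin I, the inhibitory subunit, comes in 2 runs of neighbouring copies. *tnni2a.4* had 0.837, 0.775, 0.594 and 0.251 CPM in WT and 1.49, 1.72, 2.9 and 3.46 CPM in *mtmr5*-KO libraries (log2 fold change 1.93, SE 0.49, adjusted p = 0.0104). *tnni2a.1* had 0.977, 1.42, 0.768 and 0.215 CPM in WT and 1.79, 1.85, 2.99 and 4.23 CPM in *mtmr5*-KO libraries (log2 fold change 1.66, SE 0.51, adjusted p = 0.0306). Neither overlapped between genotypes. Both calls were lost without *mtmr5*-KO replicates 3 and 4 together and with library totals, for *tnni2a.4* at an adjusted p of up to 0.144 (edgeR). The call of *tnni2a.1* was also lost with *mtmr5*-KO replicate 3 or 4 or WT replicate 1, 3 or 4 left out (the adjusted p was then between 0.0533 and 0.116). *tnni2b.2* had 1.09, 1.03, 0.245 and 0.574 CPM in WT and 3.43, 0.927, 2.52 and 5.2 CPM in *mtmr5*-KO libraries (log2 fold change 2.01, SE 0.55, adjusted p = 0.0163). *mtmr5*-KO replicate 2 lay inside the WT range, and without *mtmr5*-KO replicate 4 its adjusted p was 0.0796. Summed over the 4 *tnni2a* neighbours, levels were 5.1 to 9.57 CPM in WT and 7.88 to 10.6 CPM in *mtmr5*-KO libraries, which overlap. The other 20 fast genes did not pass the test, with log2 fold changes from -1.09 to 1.93.

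The 13 genes of slow fibres split: 2 (15.4%) rose and 3 (23.1%) fell, against 13.5% and 7.51% of all genes tested, and their median log2 fold change was 0.01. Their summed level was 33.7, 41.5, 32.9 and 37.8 CPM in WT and 36.7, 29.1, 29.6 and 41.8 CPM in *mtmr5*-KO libraries, which overlap. Beside the 2 heavy chains above, *mybpc1*, the slow myosin binding protein C that tunes cross-bridge cycling, fell from 6.14, 6.49, 4.68 and 7.71 CPM in WT to 4.18, 2.71, 1.5 and 2.41 CPM in *mtmr5*-KO libraries (log2 fold change -1.2, SE 0.31, adjusted p = 0.0118). The groups did not overlap, with *mtmr5*-KO replicate 1 nearest to WT, and the adjusted p was 0.0718 at a log2 fold change of -0.90 without *mtmr5*-KO replicates 3 and 4. Slow troponin T, *tnnt1*, had 6.78, 4.78, 5.24 and 7.03 CPM in WT and 12, 6.69, 8.6 and 16.6 CPM in *mtmr5*-KO libraries (log2 fold change 0.87, SE 0.27, adjusted p = 0.0295). *mtmr5*-KO replicate 2 fell within the WT range and replicate 4 was the highest. The light chain *myl10* had 3.32, 4.17, 2.55 and 2.22 CPM in WT and 5.3, 3.71, 7.1 and 6.45 CPM in *mtmr5*-KO libraries (log2 fold change 0.87, SE 0.30, adjusted p = 0.0478), again with *mtmr5*-KO replicate 2 inside the WT range. Both calls were lost when 1 of several libraries was left out. The adjusted p of *tnnt1* was between 0.0578 and 0.135 with *mtmr5*-KO replicate 1 or 4 or WT replicate 2 or 3 left out, that of *myl10* was between 0.0609 and 0.137 without any 1 library other than WT replicate 2 or *mtmr5*-KO replicate 2, and with library totals their log2 fold changes were -0.12 and -0.15. The call of *myl10* was also lost with RLE size factors, with TMM factors computed without mitochondrial and top genes, with limma-voom and with no count filter (adjusted p of 0.0506, 0.0503, 0.0569 and 0.0675). The remaining 8 slow genes did not pass the test, with log2 fold changes from -2.0 to 1.24.

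None of the 11 genes classed as cardiac passed the test with edgeR in either direction, while 2 were higher and 0 lower at an unadjusted p under 0.05, and DESeq2 called 2 higher and limma-voom 1. The row *TNNT2*, named for the troponin T of mammalian heart, was not placed in this class. Nor were *tnnt2c*, *tnnt2d* and *tnnt2e*, of the same troponin T symbol series. *TNNT2* and *tnnt2e* rose and are described below, so the absence of a call here depends on that placement. *tnnt2c* and *tnnt2d* had log2 fold changes of 0.70 (SE 0.63) and 0.21 (SE 0.34) and did not pass the test. The summed level of the 11 genes was 35.4, 29.6, 29.5 and 35.5 CPM in WT and 30.8, 39.2, 33.5 and 23.8 CPM in *mtmr5*-KO libraries, which overlap, at a median log2 fold change of 0.36. *myh7*, *myh7l* and *mybpc3*, at WT means of 11.3, 5.41 and 4.99 CPM, weigh most in this sum. The heart marker *myl7*, at a WT mean of 0.837 CPM, weighs little in it and in the fast over cardiac ratio. The cardiac myosin binding protein C gene *mybpc3* had 3.68, 5.33, 5.03 and 5.92 CPM in WT and 7.46, 9.8, 8.88 and 5.77 CPM in *mtmr5*-KO libraries (log2 fold change 0.68, SE 0.24, adjusted p = 0.0574). Only *mtmr5*-KO replicate 4 lay within the WT range, and without it the adjusted p was 0.0376. The gene also passed with DESeq2, limma-voom, upper quartile factors and the minimum of 50 counts in 4 libraries (adjusted p of 0.0303, 0.0464, 0.0405 and 0.0342), and had -0.25 with library totals. *tnnc1a*, the calcium-binding troponin C of the heart, had 12, 15, 5 and 15 counts in WT and 2, 30, 16 and 20 counts in *mtmr5*-KO libraries (log2 fold change 1.84, SE 0.70, adjusted p = 0.0745). In CPM, *mtmr5*-KO replicate 1 lay below the WT libraries and the other *mtmr5*-KO libraries above them, and without replicate 1 the log2 fold change was 2.21 at an adjusted p of 0.011. The cardiac heavy chain *myh7* had 16.5, 10.6, 8.03 and 9.9 CPM in WT and 12.6, 9.4, 6.26 and 3.75 CPM in *mtmr5*-KO libraries (log2 fold change -0.48, SE 0.31, adjusted p = 0.306), and its neighbour *myh7l* 3.8, 4.13, 5.48 and 8.22 CPM and 1.57, 5.69, 2.34 and 2.79 CPM (log2 fold change -0.79, SE 0.38, adjusted p = 0.154). Groups overlapped for both, though *myh7l* without *mtmr5*-KO replicate 2, its highest *mtmr5*-KO library, had a log2 fold change of -1.3 at an adjusted p of 0.0215. For *mybpc3*, *tnnc1a* and *myh7l* the library left out went against the difference, so the p without it is no support for a change. The regulatory light chain *myl7*, a marker of heart muscle, had 21, 30, 37 and 14 counts in WT and 11, 29, 24 and 10 counts in *mtmr5*-KO libraries (log2 fold change 0.83, SE 0.52, adjusted p = 0.283), so it was counted in every library.

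**Figure D4:**
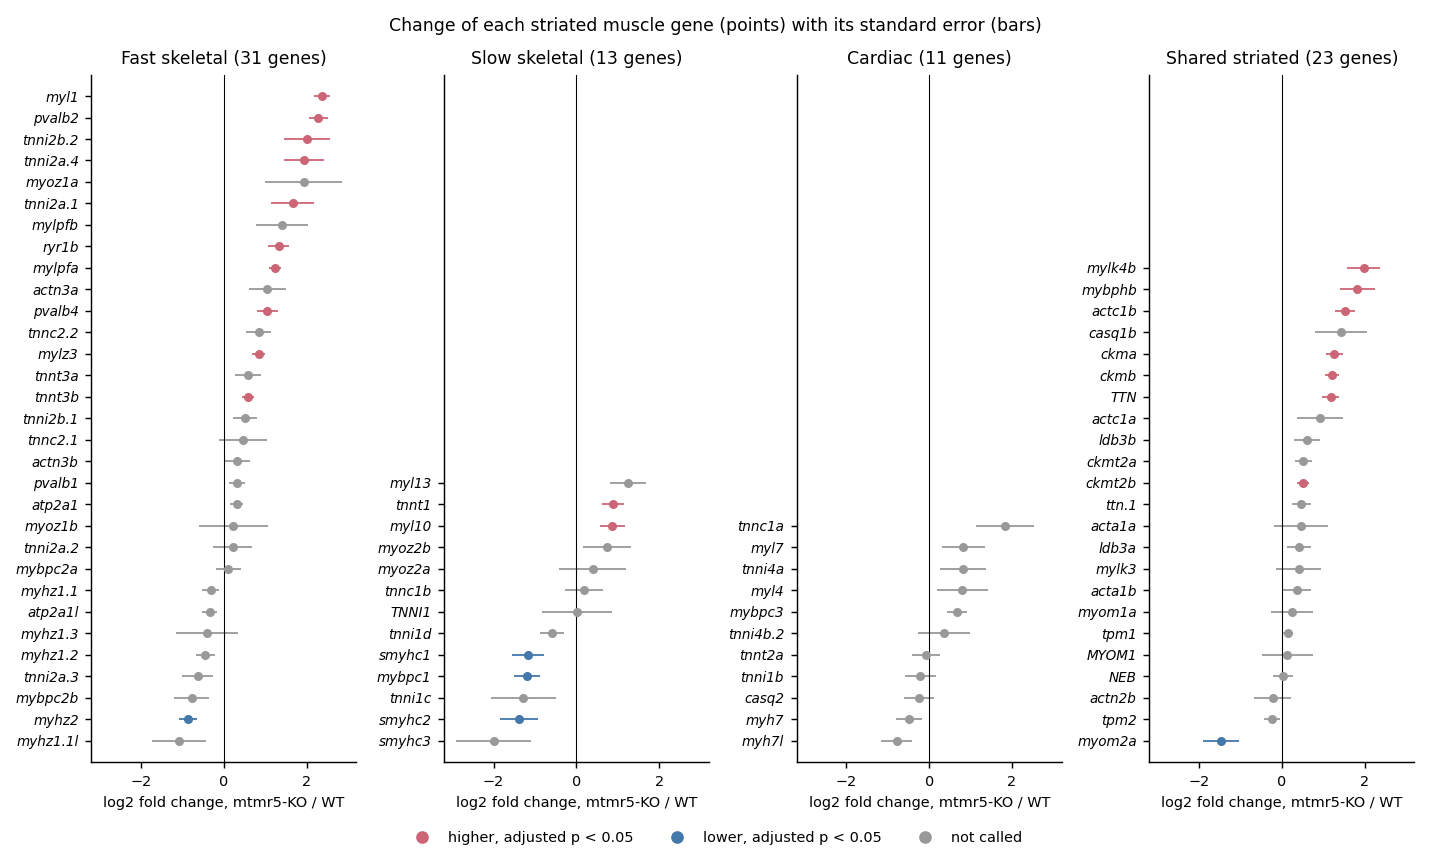
Log2 fold change (*mtmr5*-KO over WT, horizontal axis) with its standard error for each gene of the fast (31), slow (13), cardiac (11) and shared striated (23) classes. Red genes were higher and blue genes lower past the same threshold as above. There are 10 red genes in the fast class, 7 in the shared class, 2 in the slow class and none in the cardiac class, which does not hold *TNNT2* or *tnnt2e*.

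Of 23 genes shared by striated muscles, 7 (30.4%) rose and 1 (4.35%) fell, against 13.5% and 7.51% of all genes tested, with a median log2 fold change of 0.47 and summed levels of 574, 580.2, 637 and 649 CPM in WT and 943, 1145, 1144 and 980.0 CPM in *mtmr5*-KO libraries. The titin rows *TTN* and *ttn.1* weigh most in these sums. Their means were 163 and 124 CPM in WT and 369 and 172 CPM in *mtmr5*-KO libraries. Creatine kinases regenerate ATP from phosphocreatine. The cytosolic muscle forms *ckmb* and *ckma* stood at 22, 22.7, 22.2 and 18.9 CPM and 13.5, 11.8, 11.6 and 8.58 CPM in WT. In *mtmr5*-KO libraries they stood at 41.9, 38.5, 57.2 and 60.9 CPM and 17.8, 26.4, 33.2 and 32.3 CPM. Both separated the genotypes (log2 fold change 1.21, SE 0.17, adjusted p = 8.77e-05 for *ckmb*, and log2 fold change 1.27, SE 0.21, adjusted p = 0.000367 for *ckma*). Of the mitochondrial forms, *ckmt2b* had 27.5, 27.7, 21.3 and 22.2 CPM in WT and 35.9, 33.7, 33 and 37.1 CPM in *mtmr5*-KO libraries (log2 fold change 0.50, SE 0.15, adjusted p = 0.0229), without overlap, and *ckmt2a* had 122, 89, 76.5 and 74.3 CPM in WT and 180.1, 134, 94.7 and 108 CPM in *mtmr5*-KO libraries (log2 fold change 0.52, SE 0.21, adjusted p = 0.0874). The groups of *ckmt2a* overlapped, it passed the test without WT replicate 1 (adjusted p = 0.0274) and without *mtmr5*-KO replicates 3 and 4 (0.0408), and its log2 fold change was -0.42 with library totals. The *ckmt2b* call was lost with *mtmr5*-KO replicate 4 or WT replicate 3 or 4 left out (the adjusted p was then between 0.0672 and 0.093), with no count filter it had 0.0571, and with library totals its log2 fold change was -0.47.

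*actc1b*, a sarcomeric alpha-actin of the thin filament, had 28.9, 25.2, 22.7 and 17.8 CPM in WT and 60.9, 45.1, 58.6 and 109 CPM in *mtmr5*-KO libraries (log2 fold change 1.53, SE 0.24, adjusted p = 0.000352). The groups were apart, with *mtmr5*-KO replicate 4 far above the other libraries. The other 3 sarcomeric actins did not pass the test. *actc1a*, *acta1b* and *acta1a* had log2 fold changes of 0.92 (SE 0.55), 0.36 (SE 0.34) and 0.46 (SE 0.65). Of the titins, the giant springs that span the sarcomere from Z-disc to M-band, the row *TTN*, named for titin, had 117, 145, 188 and 203 CPM in WT and 292, 409, 468 and 307 CPM in *mtmr5*-KO libraries (log2 fold change 1.18, SE 0.20, adjusted p = 0.000647). The groups did not overlap, although WT replicates 3 and 4 were higher than replicates 1 and 2. The second titin row, *ttn.1*, had 82.2, 116, 150.0 and 149 CPM in WT and 126, 232, 201 and 129 CPM in *mtmr5*-KO libraries (log2 fold change 0.47, SE 0.23, adjusted p = 0.158), with *mtmr5*-KO replicates 1 and 4 inside the WT range. Titins are long repetitive genes, and reads that align to both were not counted. The row *NEB*, named for nebulin, had means of 5.71 CPM in WT and 5.82 CPM in *mtmr5*-KO libraries (log2 fold change 0.03, SE 0.24, adjusted p = 0.949).

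Myosin binding protein H, *mybphb*, had 1.09, 1.55, 1.78 and 1.76 CPM in WT and 3.28, 2.25, 5.89 and 10.6 CPM in *mtmr5*-KO libraries (log2 fold change 1.82, SE 0.42, adjusted p = 0.00621), without overlap. Its *mtmr5*-KO replicates 3 and 4 were the highest, and without them the log2 fold change was 0.80 at an adjusted p of 0.187. *mylk4b*, of the myosin light chain kinase family, had 6.39, 14.7, 16.1 and 25.8 CPM in WT and 36.5, 68.7, 73 and 69.2 CPM in *mtmr5*-KO libraries (log2 fold change 1.98, SE 0.39, adjusted p = 0.00695). No library overlapped, and without *mtmr5*-KO replicates 3 and 4 the log2 fold change was 1.72 at an adjusted p of 0.078. The fall was that of *myom2a*, a myomesin that cross-links thick filaments at the M-band, from 2.79, 2.62, 2.86 and 3.8 CPM in WT to 1.72, 1.46, 0.374 and 0.674 CPM in *mtmr5*-KO libraries (log2 fold change -1.48, SE 0.43, adjusted p = 0.0231). Its groups did not overlap, but its adjusted p was between 0.0513 and 0.0731 with *mtmr5*-KO replicate 4 or WT replicate 3 or 4 left out. The other 15 shared genes did not pass the test, with log2 fold changes from -0.24 to 1.43.

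Smooth muscle and non-muscle cells use relatives of the same proteins. Of their 17 genes, 1 rose and 1 fell (5.88% each), under the 13.5% and 7.51% of all genes tested, at a median log2 fold change of -0.02 and summed levels of 342 to 422 CPM in WT and 309 to 383 CPM in *mtmr5*-KO libraries. *myh10*, the heavy chain of non-muscle myosin IIB, a cytoskeletal motor also found in neurons, fell from 78.9, 65.1, 69.8 and 69.2 CPM in WT to 40.8, 53.8, 46.4 and 43.4 CPM in *mtmr5*-KO libraries (log2 fold change -0.62, SE 0.14, adjusted p = 0.00534). All *mtmr5*-KO libraries were lower, and this call held in all 18 alternative fits. The tropomyosin *tpm4b* had 3.82, 2.94, 2.31 and 1.54 CPM in WT and 5.37, 4.37, 5.05 and 6.93 CPM in *mtmr5*-KO libraries (log2 fold change 1.02, SE 0.31, adjusted p = 0.0281), without overlap, but its call was lost with *mtmr5*-KO replicate 3 or 4 or WT replicate 2, 3 or 4 left out (the adjusted p was then between 0.0511 and 0.0981). The non-muscle regulatory light chains *myl12.1* and *myl12.2* had log2 fold changes of -0.31 (SE 0.15, adjusted p = 0.158) and -0.39 (SE 0.17, adjusted p = 0.117). *myl12.2* passed the test without *mtmr5*-KO replicate 2 (adjusted p = 0.0425). The widely expressed tropomyosin *tpm3* had 0.32 (SE 0.16, adjusted p = 0.179), and -0.68 with library totals.

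The symbols also matched 7 genes known from nervous tissue. Of these 1 (14.3%, near the 13.5% of all genes tested) rose, *RYR3*, named for a calcium release channel of brain and muscle, from 39.2, 29.4, 44.2 and 50.3 CPM in WT to 95.6, 71.4, 129.9 and 136 CPM in *mtmr5*-KO libraries (log2 fold change 1.41, SE 0.21, adjusted p = 0.000165). The groups were well apart. *pvalb5* had 8.21, 2.07, 1.75 and 3.77 CPM in WT and 7.99, 4.9, 11.1 and 10.6 CPM in *mtmr5*-KO libraries (log2 fold change 1.12, SE 0.44, adjusted p = 0.095), where WT replicate 1 lay within the *mtmr5*-KO range. Without that library, which went against the difference, its log2 fold change was 1.77 at an adjusted p of 0.00303, which is no support for a change. The parvalbumins *pvalb6*, *pvalb7* and *pvalb8*, had log2 fold changes of -0.14, 0.24 and 0.29 (SE 0.16, 0.16 and 0.19), and *ckmt1*, the ubiquitous mitochondrial creatine kinase, -0.35 (SE 0.16). None of these passed the test, though *ckmt1* did without *mtmr5*-KO replicate 2 (-0.55, adjusted p = 0.017), and with library totals *pvalb7* and *pvalb8* had -0.73 and -0.64.

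Of the last 9 genes, which were placed in no single fibre type by symbol, 2 (22.2%) rose and 1 (11.1%) fell, against 13.5% and 7.51% of all genes tested. *myh7bb*, a copy of myosin heavy chain 7B, had 6.78, 6.98, 7.27 and 8.25 CPM in WT and 1.42, 5.43, 2.62 and 2.6 CPM in *mtmr5*-KO libraries (log2 fold change -1.26, SE 0.33, adjusted p = 0.0122), without overlap. *mtmr5*-KO replicate 2 was the nearest to WT, and without replicates 3 and 4 the adjusted p was 0.0962 at a log2 fold change of -1.11. Its paralog *myh7ba* had a log2 fold change of -0.52 (SE 0.40, adjusted p = 0.388). The troponin T *tnnt2e* had 3.01, 6.59, 6.85 and 5.7 CPM in WT and 8.36, 9.27, 13.6 and 13.1 CPM in *mtmr5*-KO libraries (log2 fold change 1.0, SE 0.27, adjusted p = 0.0151), without overlap, and lost its call without *mtmr5*-KO replicate 3 or 4 (adjusted p 0.0521 and 0.0534). *TNNT2*, a row named for the troponin T of mammalian heart, had 1.14, 1.26, 1.29 and 1.47 CPM in WT and 1.57, 1.72, 4.39 and 4.52 CPM in *mtmr5*-KO libraries (log2 fold change 1.22, SE 0.41, adjusted p = 0.047). There *mtmr5*-KO replicates 1 and 2 lay just above WT and replicates 3 and 4 far above, and the adjusted p was between 0.0776 and 0.155 without any 1 library other than *mtmr5*-KO replicate 1 or 2. Its call was also lost with limma-voom (0.0907) and with no count filter (0.0573). *RYR1*, a row named for the skeletal calcium release channel, and *myoz3a*, a Z-disc protein that binds calcineurin, had log2 fold changes of -0.22 (SE 0.25) and 0.77 (SE 0.41).

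Other genes of muscle were counted from lists outside the symbol rule, and each share below stands against 13.5% higher and 7.51% lower over all genes tested. These lists also hold genes expressed outside muscle, and which cells of the head carry a change was not tested. Of 17 myogenic factors tested, 6 (35.3%) rose and 0 fell, among them *mef2d*, *myog* and *mef2aa*, with log2 fold changes of 1.12 (SE 0.17), 2.5 (SE 0.37) and 1.22 (SE 0.19); 7 were higher and 0 lower at an unadjusted p under 0.05. Myogenin drives terminal differentiation of muscle cells, and the MEF2 factors also act in neurons. *myod1* and *myf5*, named after their values were seen, had -0.47 (SE 0.66) and 0.60 (SE 0.98) and did not pass the test. Of 20 genes of the triad, where the calcium channel meets its store, 4 (20%) rose and 1 (5%) fell. The 3 with the smallest p were the ryanodine receptor anchor *trdn* (2.1, SE 0.21), the store protein *hrc* (1.43, SE 0.18) and the junctophilin *jph1a* (1.11, SE 0.27), while *fkbp1b*, named after its value was seen, had -0.62 (SE 0.19). The other 15 did not pass the test. Among them were the calcium channel genes *cacna1sa* (-0.86, SE 0.91) and *cacna1sb* (0.45, SE 0.88), also named after their values were seen. At the neuromuscular junction 0 of 11 rose and 2 (18.2%) fell, acetylcholinesterase (*ache*, -0.67, SE 0.17) and agrin (*agrn*, -0.48, SE 0.13), both also expressed in the brain, and 2 were higher at an unadjusted p under 0.05. Of 34 Z-disc, thin filament and chaperone genes, 5 (14.7%) rose and 1 (2.94%) fell, close to or under the shares of all genes. The rises were led by *desma* (1.28, SE 0.17), *hsp90aa1.2* (1.25, SE 0.17) and *lmod2b* (2.03, SE 0.33). The paralogs *desmb* (-0.07, SE 0.52) and *hsp90aa1.1* (-0.45, SE 0.62), named after their values were seen, did not pass the test. The fall was that of the calpain *capn3a*, also named after its value was seen, from 189, 723, 249.9 and 658 CPM in WT to 50.8, 69.7, 16.4 and 21.1 CPM in *mtmr5*-KO libraries (-3.52, SE 0.70). The lens crystallin *cryba2b* stood at 584, 2734, 957 and 2456 CPM in WT and 41, 70.9, 4.49 and 6.64 CPM in *mtmr5*-KO libraries, and both genes were highest in WT replicates 2 and 4 and lowest in *mtmr5*-KO replicates 3 and 4. The part of the lens in the fall of *capn3a* was not tested. Of 25 genes of muscle energy supply 3 (12%) rose and 1 (4%) fell, both under the shares of all genes, with the smallest p for *PPARGC1A* (1.58, SE 0.23), *gapdh* (1.54, SE 0.25) and the fatty acid carrier *fabp3* (-0.83, SE 0.16). Of 10 dystrophin and adhesion genes 2 (20%) rose, *dag1* (1.35, SE 0.17) and *pleca* (1.39, SE 0.20). Of 6 heart genes outside the sarcomere 1 (16.7%) rose, *nkx2.5* (0.83, SE 0.25), and of 8 other smooth muscle genes 2 (25%) rose, *lmod1b* (2.2, SE 0.21) and *smtna* (1.47, SE 0.35).

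Marker lists of other tissues were counted in the same way, each share against 13.5% higher and 7.51% lower over all genes tested. Of 19 liver genes 14 (73.7%) were higher, with summed levels of 136, 99.1, 147 and 156 CPM in WT and 314, 231, 589.6 and 702 CPM in *mtmr5*-KO libraries. Of 15 exocrine pancreas genes 7 (46.7%) were higher, at 13.4 to 19.2 CPM in WT and 33.4 to 84.8 CPM in *mtmr5*-KO libraries. Of 16 epidermis genes 9 (56.2%) were higher, at 392 to 765 CPM and 868 to 2114 CPM. Sums of these 3 lists did not overlap between genotypes, and all 3 were higher in *mtmr5*-KO replicates 3 and 4 than in 1 and 2. Of 17 cartilage genes 2 (11.8%) were higher, under the share of all genes, at 254 to 334 CPM and 248 to 402 CPM, which overlap. Of 11 neuron genes 6 (54.5%) were higher and 1 (9.09%) lower, at 4478 to 5874 CPM and 7438 to 8838 CPM. Of 54 genes taken as lens crystallins by symbol 1 (1.85%) was higher and 32 (59.3%) were lower, at 20680.0 to 95235 CPM and 526 to 6414 CPM. The higher one was *crybg1a* (0.96, SE 0.29), named after its value was seen, and whether it is a lens gene was not settled. Of 19 posterior *hox* genes, which mark trunk tissue, 2 passed the count minimum and 1, *hoxc10a*, was higher (1.95, SE 0.54). The liver genes *fabp10a* and *tfa* had counts in all 8 libraries, and *cryaa* was at 0 in *mtmr5*-KO replicate 4 alone. The fast class was highest in *mtmr5*-KO replicates 3 and 4, as the liver, pancreas, epidermis and neuron lists were. The crystallin list was lowest in these 2 libraries, and the shared class was highest in replicates 2 and 3. The part of these tissues in the muscle values was not tested.

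**Figure D5:**
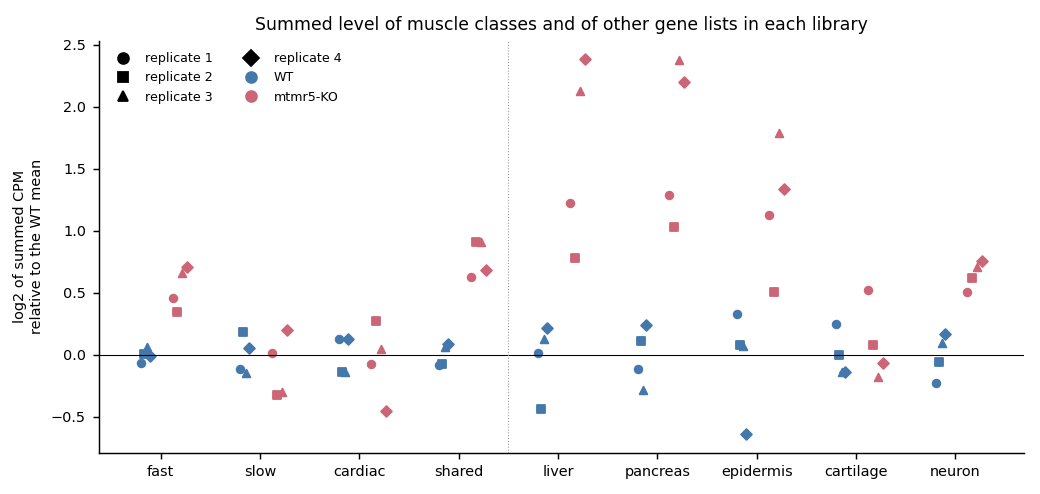
Summed TMM-scaled level of the fast, slow, cardiac and shared muscle classes and of 5 lists of other tissues in each library, as log2 relative to the WT mean (vertical axis), with 1 symbol a replicate, WT blue and *mtmr5*-KO red. Fast, shared, liver, pancreas, epidermis and neuron sums lie above WT in all *mtmr5*-KO libraries, while slow, cardiac and cartilage sums straddle it.

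Of the 122 matching rows, 11 had too few counts and were not tested. Nearest outside the minimum were *myhc4*, *mybpha* and *myh6*, with 63, 51 and 50 counts over the 8 libraries, and nearest inside were *myoz1b*, *mylkb* and *myoz1a*, with 58, 69 and 82 counts, each with 3 libraries at 10 counts or more. The atrial heavy chain *myh6* had 19, 8, 11 and 8 counts in WT and 1, 1, 2 and 0 counts in *mtmr5*-KO libraries. The other 8 were *pvalb3*, *mylk2*, *casq1a*, *myl2b*, *actc1c*, *tnni3k*, *MYLK4* and *tnni4b.1*.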

How the data were processed

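Poly(A) RNA of 8 pools of zebrafish heads (4 WT, 4 *mtmr5*-KO, 7 dpf) was sequenced by the authors with paired ends. Per the study's methods and the submitters' processing notes, reads were trimmed with Trim Galore 0.6.7 and aligned with STAR 2.7.11a to GRCz11, and uniquely mapping reads were counted per gene with HTSeq 2.0.5 in the mode intersection_nonempty. No source used here gives the strand setting, so reads of overlapping antisense genes may be mixed, and near-identical copies such as the *myhz*, *smyhc* and *tnni2* runs can lose some. Whole-number raw counts were deposited per gene and were tested as deposited; the deposited normalized counts were not used here.

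Genotypes and replicate numbers came from the sample labels. Rows reaching 10 counts in 3 or more libraries were tested with edgeR 4.0.16 (quasi-likelihood test, TMM factors, genotype as the only term, Benjamini-Hochberg adjustment over all 19412 rows) in R 4.3.3. The standard error is the absolute log2 fold change over the square root of F. "Rose", "fell" and "called" mean an adjusted p under 0.05, and p-values cover the spread between pools from different breeding pairs. Classes (fast, slow, cardiac, shared, smooth or non-muscle, nervous tissue, other), protein families and further lists (myogenic factors, triad, neuromuscular junction, Z-disc and chaperones, energy supply, dystrophin and adhesion, heart, smooth muscle, liver, pancreas, cartilage, epidermis, neuron, posterior *hox*, lens) go by symbol. The members and lists were chosen with earlier results of these data known. Genes were named by a rule (past an adjusted p of 0.01 and an absolute log2 fold change of 1, up to 5 with the smallest p and 3 with the highest level per class, and those against their class), which named 45 members, and 11 more were named after their values were seen. Members nearest the count minimum are named as well. So are *pvalb1*, *NEB*, *actc1a*, *acta1b*, *acta1a*, *tnnt2c* and *tnnt2d*, after their values were seen. These members are in neither number, and were not followed singly through the alternative fits. Up to 3 genes with the smallest p were named per list. DESeq2 1.42.0, limma 3.58.1 (voom), other scalings and filters, a replicate block and each library left out were alternatives. A pass reached only with 1 library left out shows dependence on that library and is no support for a change. Gene neighbours were read from RefSeq (GRCz12tu), which matched 107 of the 111 symbols, and no coordinates are given because its build differs from that of the counts. Lengths were not used, so levels are not compared between genes. The test was run on simulated counts with balanced changes and no shift in composition like that of these data, so the run does not cover the scaling.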

Additional observations from a re-analysis of the deposited data

Results flagged for a closer look

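In 3 of 114 groups of 4 libraries looked at, 1 library lay further from the others than the 95% critical value of Dixon's test allows, and chance alone gives about 1 in 20 such groups. In the *mtmr5*-KO libraries *myh7ba* stood at 2.242 CPM in replicate 3 with the next at 1.251 CPM. In WT, *myhz2* stood at 32.62 CPM in replicate 2 with the next at 20.64 CPM, the library whose removal ends the call of *myhz2*. *mylk4b* stood at 36.49 CPM in *mtmr5*-KO replicate 1, below the next at 68.73 CPM and above all WT libraries.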

How the results depend on the processing

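With library totals, 3 members were higher and 45 lower (main 23 and 7), fast 2 and 10 (10 and 1), slow 0 and 6 (2 and 3), cardiac 0 and 5 (0 and 0) and shared 1 and 4 (7 and 1), and the signs of *atp2a1* (-0.68), *ckmt2b* (-0.47), *myl10* (-0.15), *mylz3* (-0.14), *pvalb7* (-0.73), *pvalb8* (-0.64), *ckmt2a* (-0.42), *ttn.1* (-0.46), *mybpc3* (-0.25), *myoz3a* (-0.26), *myl7* (-0.15), *tnnt1* (-0.12), *tnnt3b* (-0.39) and *tpm3* (-0.68) turned; the median of all genes moved by the same construction. With *mtmr5*-KO replicates 1 and 2 only, an alternative added after the data were seen, 11 were higher and 2 lower, fast 5 and 0, slow 0 and 1, shared lower 0, and the signs of *myoz3a* (-0.0197) and *pvalb6* (0.0741) turned. At an adjusted p under 0.01 and a log2 fold change over 1, 12 were higher and 0 lower, fast 5 and 0, slow 0 and 0, shared lower 0. Slow members higher numbered 1 with DESeq2-type (RLE) size factors, 1 with TMM factors computed without mitochondrial and top genes and 1 with no count filter, and slow members lower 1 at a minimum of 50 counts in 4 libraries. Cardiac members higher numbered 1 with upper quartile factors, 2 with DESeq2, 1 with limma-voom and 1 at the stricter minimum. Leaving out 1 library gave 16 to 24 members higher and 4 to 10 lower, fast 8 to 11 and 0 to 1, slow 0 to 2 and 1 to 3, cardiac 0 to 1 and 0 to 1, shared 6 to 8 and 0 to 2, a fast to slow ratio of 1.45 to 1.65 and a fast to cardiac ratio of 1.33 to 1.72 times WT. The cause of these moves was not tested. The share of all genes called was not computed for any alternative fit, so these counts have no background to be read against. The replicate block gave 26 members higher and 10 lower, 2 fast members lower and 1 cardiac member higher; the labels do not say what a number marks, same-numbered pairs had correlated deviations of 0.09 to 0.17 with 3 of 4 over 0.1, and all 8 libraries correlated best with their own number, a hint from the data and not the design, and under the block *TNNT2* lost its call (adjusted p 0.0623) and *ckmt2a* (0.000838), *atp2a1l* (0.047), *ckmt1* (0.0433), *mybpc3* (0.0456), *myl12.1* (0.0324), *pvalb5* (0.0136) and *tpm3* (0.044) gained one (edgeR). Of the single members named, 853 values kept their direction and side of the threshold, 91 lost a call, 35 gained one and 16 turned sign, and of 30 called members 3 (*myl1*, *pvalb2* and *myh10*) kept their call and sign in every fit. Depth limits the low members, with under 100 counts over 8 libraries for the scarcest.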
